A study of Drosophila melanogaster with 3 samples.

Results

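The genes described here encode the subunits of the proteasome of Drosophila melanogaster and their paralogs. They were chosen by name from the deposited expression table: every gene whose symbol starts with Prosalpha, Prosbeta, or Rpn or Rpt followed by a digit. The rule gave 47 of the 17611 genes listed. Of these, 32 carry the name of a subunit alone and are called canonical, and 15 carry a suffix T or R, for testis-specific or related, and are called paralogs. The study sequenced RNA of wing discs, the larval epithelia that form the wing and dorsal thorax, to survey receptor genes. The discs came from wandering larvae raised at 25 °C, about 5 days after egg laying. All samples belong to 1 group, whose genotype is given as w;apGAL4/+ and also as wild type. These larvae carry 1 copy of the GAL4 driver of apterous, a gene of the dorsal disc cells, and no GAL4 target is named. The 3 libraries, each from 100 to 120 pooled discs, allow comparison between genes but not between conditions, and no label says whether they were reared apart. The p-values below therefore measure only how these libraries vary, which may be technical.

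The proteasome degrades proteins that carry ubiquitin chains. Its barrel-shaped core is built of outer rings of alpha subunits, which gate the entry, and inner rings of beta subunits, of which Prosbeta1, Prosbeta2 and Prosbeta5 are the counterparts of the catalytic ones. The regulatory particle on its ends has a base with the Rpt ATPases, which unfold and thread the substrate, and a lid of Rpn subunits that removes the ubiquitin. In wing discs the proteasome turns over or trims signalling proteins such as Armadillo and Ci. In Drosophila testes several subunits are exchanged for paralogs during sperm formation.

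Levels are in FPKM, in which the fragments of a gene are divided by its exon length and by the size of the library. The libraries held 25047773 to 26454949 recovered reads. All 10 wing disc markers stood at 1 FPKM or more in each library, with medians of 57.5, 55.3 and 56.4 FPKM in libraries 1, 2 and 3. Transcripts of other tissues were present and unequal. The summed level of 6 digestive tract genes was 6.91, 878 and 391 FPKM. That of 6 fat body genes was 535, 893 and 2439 FPKM, and that of 5 hemocyte genes 34.0, 40.9 and 33.4 FPKM. Of the digestive tract genes 5 of 6 were highest in library 2, where Jon65Aiv and Jon65Aiii alone had 542 and 282 FPKM. Of the fat body genes 5 of 6 were highest in library 3, but Fbp1 had 124, 164 and 164 FPKM. In Lsp2, 84.6% of the exon bases are overlapped from the other strand. In such bulk samples fewer cells of a type and less RNA per cell cannot be told apart.

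The canonical subunit genes were expressed at high and similar levels, and the paralogs were near 0. A level of at least 1 FPKM in each library was reached by 31 of 32 canonical genes and, among 15 paralogs, by Rpt3R alone. Over all genes listed, 42.9% reached it. All 47 members had reads in some library and entered the limma test of mean log2(FPKM + 0.1) against 1 FPKM. It placed 31 canonical genes above 1 FPKM, with Benjamini-Hochberg adjusted p from 7.74e-06 to 7.94e-06, as it did 53.3% of the 13909 genes tested. Below 1 FPKM it placed 13 paralogs and Prosalpha1, against 38% of the genes tested. The 31 canonical genes lay between 92.2 and 238 FPKM, at percentiles 95.4 to 98.7 of all genes listed. All canonical genes together took 0.681%, 0.699% and 0.662% of the recovered reads in libraries 1, 2 and 3.

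**Figure D1:**
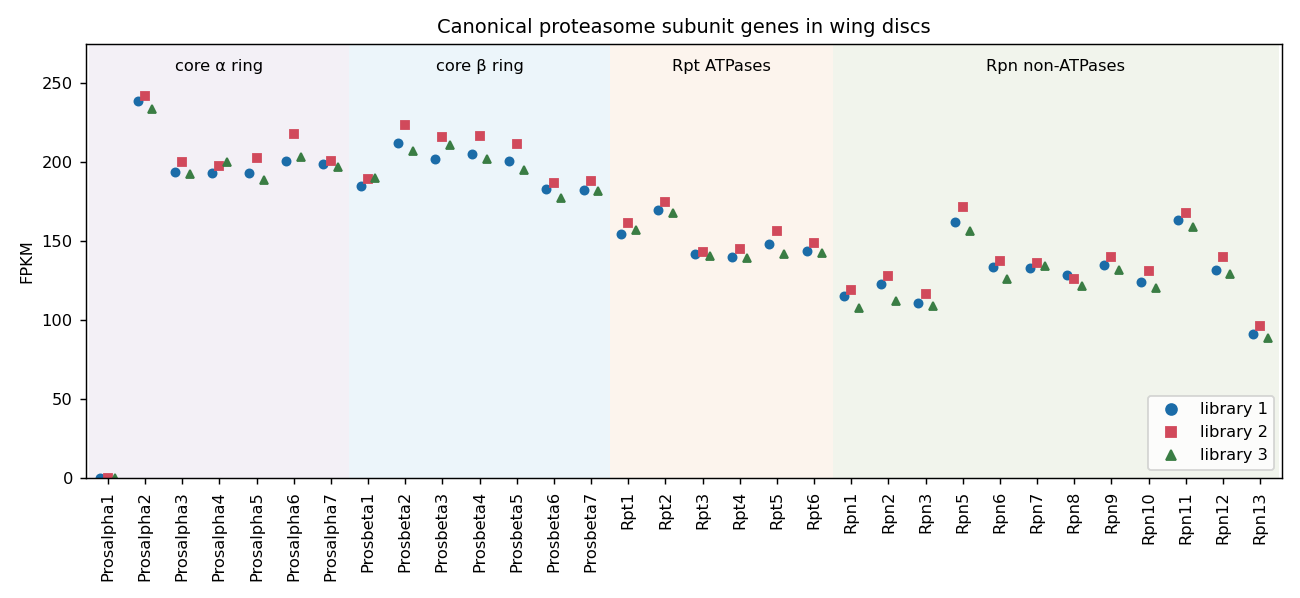
FPKM of the 32 canonical subunit genes (vertical axis, from 0) by subunit class, with 1 point per library. Prosalpha1 lies near 0, the lowest value of the other core genes is 178 FPKM and the highest of the Rpt and Rpn genes 175 FPKM.

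In the alpha ring, 6 of 7 genes lay within a narrow range of means, from 194.8 to 238 FPKM, a 1.22-fold range. Prosalpha2 was the highest member of all, with 239, 242 and 234 FPKM in libraries 1, 2 and 3 and a mean of 238 ± 4.17 FPKM (SD, n = 3). Its lowest library, at 234 FPKM, lay above the highest of every other member, so that it did not overlap any of them. Prosalpha6 followed in this ring, with 201, 218 and 204 FPKM, highest in library 2. Prosalpha7 stood at 199 ± 1.95 FPKM, Prosalpha4 at 197 ± 3.68 FPKM, Prosalpha3 at 196 ± 3.89 FPKM and Prosalpha5 at 195 ± 6.97 FPKM. The ranges of these 4 genes over the libraries overlapped.

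Prosalpha1, the gene of the remaining alpha subunit, was listed near 0. It had 0.0387, 0 and 0.124 FPKM in libraries 1, 2 and 3, from 1, 0 and 3 reads. At the median FPKM of the other alpha genes, its exons would have held 5073, 5072 and 4812 reads. The limma test placed it below 1 FPKM with an adjusted p of 0.00253. Prosalpha1 lies at chromosome 2R 7827303 to 7828678 (dm6 coordinates, minus strand). A second copy of the gene, listed as CG30382 and named Prosalpha1R in the Ensembl annotation, lies on the same strand at 7830413 to 7831771, 1734 bases away. CG30382 was also near 0, at 0.0789, 0.162 and 0.0420 FPKM, from 2, 4 and 1 reads.

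The annotation gives the alpha1 copies matching structures. Exons 2, 3 and 4 are 100, 177 and 580 bases long in each copy, and each exon lies 3110 bases from its counterpart. They make up 88.4% of the exon length of Prosalpha1 and 90.02% of that of CG30382, and each gene has 732 coding bases. Only the first exons differ in length. How the authors' counting treated reads that match more than 1 place is not given in the sources used here, and its part in these values was not tested. The values of both copies are therefore uncertain, and the level of alpha1 transcripts is not given by this table.

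All 7 genes of the beta ring were above 1 FPKM, with means from 182.5 to 214 FPKM, a 1.17-fold range. Prosbeta2, the counterpart of the trypsin-like catalytic subunit, had 212, 223 and 207 FPKM in libraries 1, 2 and 3 (mean 214 ± 8.36 FPKM, SD, n = 3). Prosbeta5, the counterpart of the chymotrypsin-like subunit, had 201, 212 and 195 FPKM (mean 203 ± 8.38 FPKM). Prosbeta1, the counterpart of the caspase-like subunit, had 185, 189 and 190.2 FPKM (mean 188 ± 2.86 FPKM). Prosbeta1 lay below the other catalytic genes in every library, and the ranges of Prosbeta2 and Prosbeta5 overlapped.

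The non-catalytic beta genes spread over most of that range. Prosbeta3 had 202, 216 and 211 FPKM in libraries 1, 2 and 3 (mean 209.7 ± 7.05 FPKM, SD, n = 3). For Prosbeta4 the values were 205, 217 and 202 FPKM (mean 208 ± 7.52 FPKM), and its range overlapped that of Prosbeta3. Prosbeta7 stood at 184 ± 3.53 FPKM and Prosbeta6 at 183 ± 4.58 FPKM. Dominant temperature-sensitive alleles of Prosbeta6 and Prosbeta2 are used to block the proteasome in fly tissues. In these discs Prosbeta6 had the lowest mean of the core genes other than Prosalpha1, with 183, 187 and 178 FPKM, below Prosbeta2 in 3 of 3 libraries.

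The 6 Rpt genes, which encode the ATPases of the base, lay between 141 and 171 FPKM, a 1.21-fold range. Rpt2 was the highest with 170.1, 175 and 168 FPKM in libraries 1, 2 and 3 (mean 171 ± 3.57 FPKM, SD, n = 3), above every other Rpt gene in each library. Rpt1 stood at 158 ± 3.58 FPKM, Rpt5 at 149 ± 7.32 FPKM, Rpt6 at 145 ± 3.43 FPKM, Rpt3 at 142 ± 1.33 FPKM and Rpt4 at 141 ± 3.17 FPKM. Rpt3 had the smallest SD of log2(FPKM + 0.1) of all members, 0.01, and Rpt5 the largest among the Rpt genes, 0.07.

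The 12 Rpn genes had the widest range, from 92.2 to 164 FPKM (1.78-fold). The highest were Rpn11, the metalloprotease that cuts ubiquitin chains off the substrate, at 164 ± 4.46 FPKM, and the lid gene Rpn5 at 163 ± 7.50 FPKM. Rpn8, the partner of Rpn11, stood lower at 126 ± 3.64 FPKM. The lid genes Rpn9, Rpn7, Rpn12 and Rpn6 lay close together at 136 ± 4.34 FPKM, 135 ± 1.58 FPKM, 134 ± 5.33 FPKM and 133 ± 5.73 FPKM. Rpn3 was the lowest lid gene, with 111, 117 and 109 FPKM in libraries 1, 2 and 3 (mean 112 ± 4.14 FPKM).

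Outside the lid, Rpn1 and Rpn2 encode the large scaffold subunits of the base, and Rpn10 and Rpn13 encode ubiquitin receptors. Rpn10 stood at 125 ± 5.30 FPKM (SD, n = 3). Rpn2 had 123, 128 and 112 FPKM in libraries 1, 2 and 3 and Rpn1 116, 119 and 108 FPKM. After Prosalpha1 these had the largest SDs of log2(FPKM + 0.1) among canonical genes, 0.10 and 0.07, with both lowest in library 3. Rpn13, at chromosome 2R 13958545 to 13960404, was the lowest canonical gene other than Prosalpha1. It had 91.5, 96.2 and 88.9 FPKM (mean 92.2 ± 3.68 FPKM). Its highest library, at 96.2 FPKM, lay below the lowest of every other canonical gene except Prosalpha1.

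Core genes stood above genes of the regulatory particle. In libraries 1, 2 and 3 the median of the core genes other than Prosalpha1 was 199, 203 and 197 FPKM, and that of the Rpt and Rpn genes 134, 140.004 and 133 FPKM. All 13 of these core genes exceeded every Rpt and Rpn gene in each library, and the lowest core value in any library, 178 FPKM, lay above the highest regulatory value, 175 FPKM. With Prosalpha1 included, the within-library log2 ratio of the medians was 0.54 ± 0.02 (SD, n = 3), a 1.46-fold difference, positive in 3 of 3 libraries. The exact sign-flip permutation test gave a two-sided p of 0.25, the smallest that 3 libraries allow. Between the rings, the log2 ratio of the alpha to the beta median, again with Prosalpha1, was -0.04 ± 0.05 and differed in sign between libraries (exact p = 0.5). The alpha and beta medians exceeded the Rpt median by 0.42 ± 0.04 and 0.46 ± 0.01 on the log2 scale (exact p = 0.25 for each). The Rpt median exceeded the Rpn median by 0.18 ± 0.02 on the log2 scale (exact p = 0.25).

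**Figure D2:**
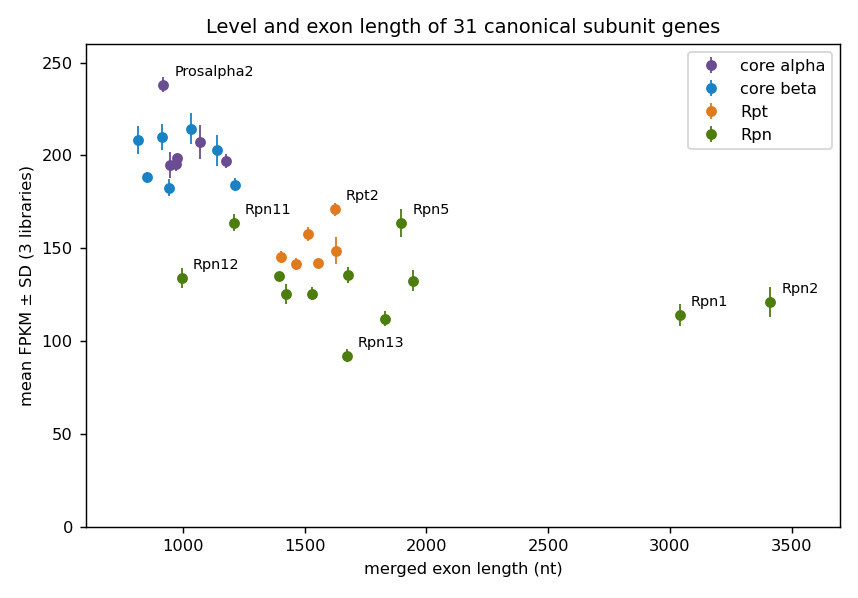
Mean FPKM with SD over 3 libraries (vertical axis, from 0) against merged exon length in nucleotides for the 31 canonical genes other than Prosalpha1, coloured by class. Short core genes lie at the top left, while Rpn12 and Rpn11 have core-like lengths and lie lower.

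Exon length moved with the order of levels. The core genes other than Prosalpha1 have merged exon lengths of 815 to 1215 bases, and the regulatory genes of 995 to 3412 bases. Across the 31 genes Spearman's rho of length and mean FPKM was -0.78, across genes that share libraries and depth. It was -0.18 within the 13 core genes and -0.36 within the 18 regulatory genes. Only 2 regulatory genes have a length within the core range: Rpn12, with 995 bases, at 134 FPKM, and Rpn11, with 1208 bases, at 164 FPKM. Both lay below all 13 core genes. In recovered reads, which are not divided by length, the order of the medians turned, with a log2 ratio of core to regulatory genes of -0.14. Median exon lengths were 973 bases for core genes other than Prosalpha1 and 1589 bases for regulatory genes, so undivided reads do not compare levels. The part of length in the difference in FPKM was not tested.

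Many neighbours in the order of mean level changed places between libraries. Of 30 neighbouring pairs among the 31 genes, 11 had the same gene higher in 3 of 3 libraries and 19 did not. Without regard to the library, 27 pairs had ranges that overlapped. The 3 that did not were Prosalpha2 above Prosbeta2, Prosbeta6 above Rpt2, and Rpn3 above Rpn13. The 8 pairs that overlapped but kept their order in each library included Rpt2 above Rpn11, Rpt1 above Rpt5 and Rpn2 above Rpn1.

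Most canonical genes were highest in the same library, by small amounts. The largest ratio of the highest to the lowest library was 1.14, for Rpn2. Of the 31 genes, 28 were highest in library 2, and 24 of these were lowest in library 3. Among 545 other genes in the same range of mean FPKM, 42.9% were highest in library 2, and 27.7% were also lowest in library 3. The median deviation from the gene's own mean log2(FPKM + 0.1) was -0.01, 0.04 and -0.04 in libraries 1, 2 and 3, against -0.01, 0.01 and -0.01 for the other genes. When libraries were scaled by their plain read totals, 26 of 31 canonical genes and 35.4% of the other genes were highest in library 2. Each library occurs once, so these differences have no replicate check.

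Marker genes and other complexes moved between libraries as well. In library 2 the digestive tract genes had their highest sum, and 5 of 5 hemocyte genes and 5 of 6 digestive tract genes were highest. Their part in the movement of the subunit genes was not tested. The genes of the CCT chaperonin, which folds actin and tubulin, were highest in library 2 in 8 of 8 cases (7 of 8 with plain read totals). Those of the COP9 signalosome were so in 3 of 8 cases and the wing disc markers in 1 of 10. Library 2 was also the highest for 5 of 7 proteasome cofactor genes and 4 of 6 genes of substrate delivery. It was so for 3 of 8 genes of cullin ligases, 2 of 5 of ubiquitin supply and 1 of 5 of subunit control. The exceptions among canonical genes were Rpn8, highest in library 1, and Prosalpha4 and Prosbeta1, highest in library 3. The median SD of log2(FPKM + 0.1) between libraries was 0.05 for the 32 canonical genes and 0.13 for all genes tested. It was 0.0448 for the 545 genes of like level and 0.0460 for the 31 canonical genes in that range, which is about the same. Without library 2, in which most canonical genes were highest, the median of the 32 canonical genes was 0.02. The matching value for the 545 genes is not given here, so this does not show the canonical genes to be steadier.

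**Figure D3:**
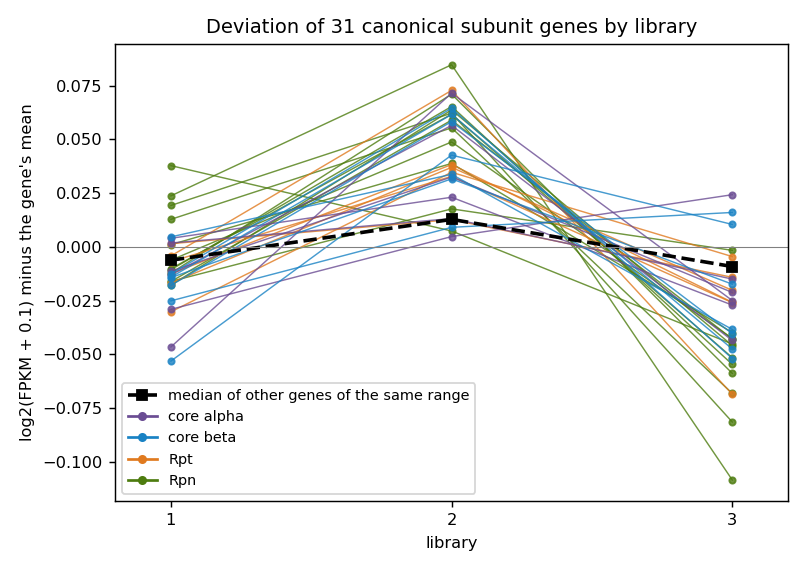
Deviation of each of 31 canonical genes from its own mean log2(FPKM + 0.1) (vertical axis) in libraries 1, 2 and 3, coloured by class. The dashed line is the median of the 545 other genes in the same range of FPKM, and 28 of the 31 genes peak in library 2.

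The paralogs were near 0 with the exception of Rpt3R. That gene, named after the base ATPase gene Rpt3, lies at chromosome 3R 9754735 to 9756510 and had 2.82, 2.23 and 2.20 FPKM in libraries 1, 2 and 3 (mean 2.42 ± 0.348 FPKM, SD, n = 3), from 109, 84 and 80 reads. It was above 1 FPKM in every library (limma adjusted p = 0.00169). Rpt3 exceeded it by a ratio of reads per length of 58.6 (52.0 to 66.3), with the exact 95% interval in parentheses. Such intervals cover counting error only. Rpt6R, with 0.234, 0.293 and 0.249 FPKM, was the steadiest of the others, from 9, 11 and 9 reads, and lay below 1 FPKM (limma adjusted p = 0.000275). Rpt6 exceeded Rpt6R by a ratio of 562 (391 to 839). Rpt4R was at 0.09998, 0 and 0.0799 FPKM, with no read in library 2.

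The alpha-type paralogs are named for testis. Prosalpha6T, which acts in sperm formation, had 0.258, 0 and 0.0784 FPKM in libraries 1, 2 and 3, from 7, 0 and 2 reads. Prosalpha3T, another testis subunit gene, was at 0.0422, 0 and 0.0450 FPKM, from 1, 0 and 1 reads. Prosalpha4T1 had 0.211, 0 and 0.0897 FPKM and Prosalpha4T2 0.0599, 0.0307 and 0.0638 FPKM. Each was placed below 1 FPKM by limma, with adjusted p of 0.0117, 0.000393, 0.00833 and 0.000136. Without library 3, which leaves 2 libraries, the calls of Prosalpha4T1 and Prosalpha6T were lost (limma adjusted p of 0.0649 and 0.0828). Their log2 levels against 1 FPKM hardly moved, from -2.61 and -2.57 to -2.64 and -2.54. The 4 genes together had 15, 1 and 7 reads in libraries 1, 2 and 3.

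The paralogs of beta genes were as low. Prosbeta2R2 was the highest of them, with 0.342, 0.0584 and 0.121 FPKM in libraries 1, 2 and 3, and Prosbeta2R1 had 0.0349, 0 and 0.0742 FPKM. The neighbouring genes Prosbeta4R1 and Prosbeta4R2, 1467 bases apart on chromosome 2L, had 0.136, 0 and 0 FPKM and 0.137, 0.0234 and 0 FPKM. Prosbeta5R1 was at 0.136, 0 and 0.0361 FPKM and Prosbeta5R2 at 0.196, 0.0251 and 0.0782 FPKM. All 6 were placed below 1 FPKM, with limma adjusted p from 0.00085 for Prosbeta2R1 to 0.0112 for Prosbeta2R2. Without library 3 the limma adjusted p of Prosbeta2R2 was 0.0821.

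Among paralogs of Rpn genes, Rpn12R had the largest SD of log2(FPKM + 0.1) of all members, 1.40. It had 0.599, 0.164 and 0 FPKM in libraries 1, 2 and 3, from 15, 4 and 0 reads, and limma did not place it on either side of 1 FPKM (adjusted p = 0.0585). Without library 1, which held most of its reads, the limma adjusted p was 0.0357, below 1 FPKM. Rpn13R was at 0.0690, 0 and 0.0367 FPKM, from 2, 0 and 1 reads, and was placed below 1 FPKM (limma adjusted p = 0.000741).

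Each canonical gene exceeded its paralog in every library. It was higher in 3 of 3 libraries in all 15 pairs. By the exact sign-flip permutation test, p was 0.25 in every pair, which is the least that 3 libraries can give. The mean log2 ratio of FPKM + 0.1 ran from 5.83 for Rpt3R to 10.7 for Prosbeta2R1, with a median of 10.1. These ratios depend on the pseudocount, since most paralogs had few reads, while ratios of pooled reads per length use none. Over the 15 pairs that ratio had a median of 2355. It was 514 (329 to 854) for Rpn12R, 1219 (771 to 2057) for Prosbeta2R2 and 1824 (961 to 3990.2) for Prosalpha6T. For Prosalpha3T, with 2 reads in all, it was 6747 (1867 to 55717). The ratios of most paralogs rested on library 1, which held 15 of 19 reads of Rpn12R, 12 of 18 of Prosbeta2R2 and 7 of 9 of Prosalpha6T. Without library 1 these ratios were 1614 (630.2 to 5926) for Rpn12R, 2415 (1109 to 6582) for Prosbeta2R2 and 5483 (1517 to 45278) for Prosalpha6T. In all, 9 of 14 ratios rose by over 1.5 times without it, and Prosbeta4R1 had no read left. The ratios of Rpt3R and Rpt6R were then 64.0 and 538. Leaving out library 2 gave 0.649 to 1.06 times the pooled ratios, and leaving out library 3 gave 0.687 to 2.07 times, the highest for Prosbeta2R1. Of the 15 paralogs 4 had at most 3 reads in all.

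**Figure D4:**
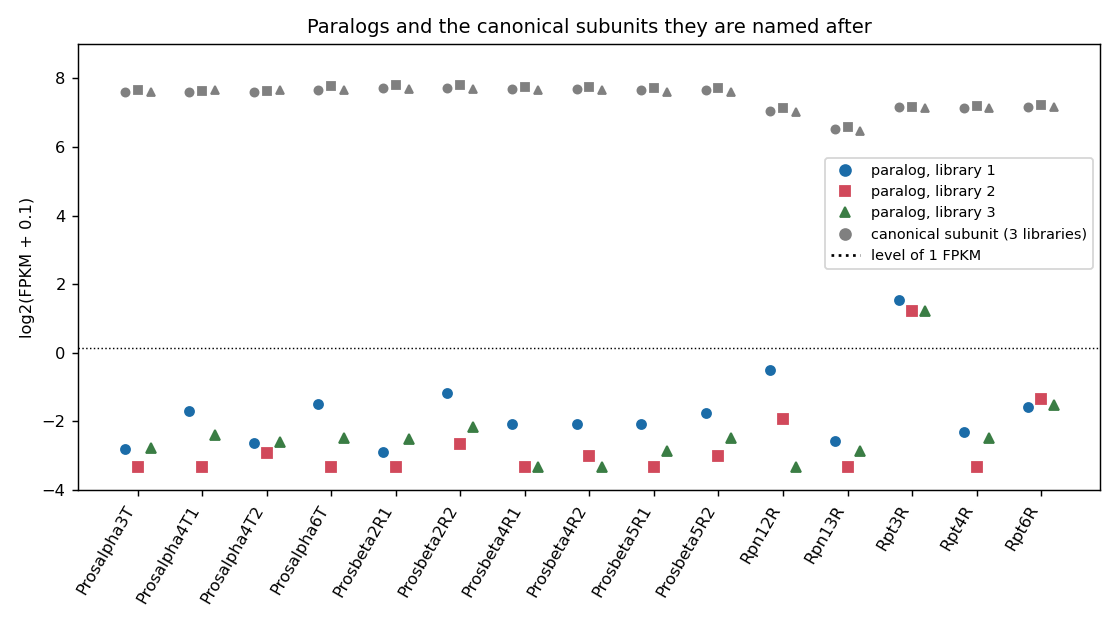
log2(FPKM + 0.1) of the 15 paralogs (coloured by library) and of the canonical gene each is named after (grey), with the level of 1 FPKM dotted. Among the paralogs only Rpt3R lies above that level, and points at the bottom edge of the coloured range are values of 0.

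Reads of the paralogs were unequal between libraries. Without Rpt3R and Rpt6R the 13 other paralogs had 70, 9 and 21 reads in libraries 1, 2 and 3. No paralog was at 0 in library 1, while 8 were at 0 in library 2 and 3 in library 3. Over the whole table, 12659, 12240 and 12411 genes with an exon length were above 0 in libraries 1, 2 and 3. The order is the same, but these differences are far smaller in proportion than those among the paralogs. The share at 0 among other genes of like low level was not counted. Of the 15 paralogs 11 were highest in library 1, against 37.7% of the tested genes with a mean under 1 FPKM. The 13 markers of testis and male germline had sums of 13.7, 7.34 and 8.67 FPKM, and 9 of 13 were highest in library 1. Of these sums mia alone gave 5.59, 5.56 and 5.90 FPKM. Mst84Da gave 3.15, 0.538 and 0.223 FPKM, with 75.1% of its exon bases overlapped by MstProx on the other strand. Of the 13 markers 5 ran in the order of the paralog reads, with library 1 above library 3 and library 3 above library 2. Among these 5 was the testis tubulin gene betaTub85D, with 1.43, 0.105 and 0.630 FPKM. The sperm tail gene dj had 0.807, 0.255 and 0.198 FPKM and was instead lowest in library 3. The early germline genes bam and vas were at 0.116, 0.0990 and 0.164 FPKM and 0.345, 0.371 and 0.350 FPKM, with 24.6% of the exon bases of vas shared with solo on the same strand. Of the 13 markers mia alone was at 1 FPKM or more in each library. None of the 13 markers was at 0 in library 1, 3 were at 0 in library 2 (aly, can and nht) and 2 in library 3 (aly and sa). The part of testis transcripts in the paralog reads was not tested.

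Canonical genes and paralogs also differed in gene structure. The Ensembl canonical transcripts of the 15 paralogs have 1 to 3 exons, and 6 of them have 1 exon. Those of the 32 canonical genes have 1 to 5 exons, and 4 have 1 exon (Rpn7, Rpn12, Rpt1 and Prosbeta3). Coding lengths within pairs were close for Prosalpha4 and Prosalpha4T1, with 747 bases each, and for Rpn12 and Rpn12R, with 792 and 786 bases. Rpn13R was shorter than Rpn13, with 972 against 1272 bases. The members are spread over all large chromosome arms, with 10 canonical genes on 2R, 9 on 3R, 5 on 3L, 4 on 2L and 4 on X. Antisense exons of other genes overlap 15.7% of the exon bases of Rpn9 and 13.0% of those of Rpt6, and at most 7.93% of any other member. The sources used here do not say if reads were assigned by strand, so reads of such overlaps cannot be told apart.

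Genes that act with the proteasome spanned a wide range of levels. Of 7 matched cofactor genes all 7 were above 1 FPKM by limma. Sem1, which encodes a small lid subunit outside the naming rule, was at 237 ± 3.67 FPKM (SD, n = 3), close to Prosalpha2. REG, the gene of the nuclear activator related to mammalian PA28gamma, stood at 140.5 ± 5.001 FPKM, and Pomp, named for the maturation of the core, at 125 ± 4.81 FPKM. Exons of vari on the other strand cover 40.02% of Pomp. The deubiquitinase gene Usp14 was at 99.8 ± 5.16 FPKM, PI31, the gene of a proteasome regulator, at 56.1 ± 1.94 FPKM, and ntc, the gene of an F-box partner of PI31 in sperm formation, at 3.87 ± 0.377 FPKM. On the same strand CG32264 shares 40.6% of the exon bases of ntc, so its level is uncertain.

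**Figure D5:**
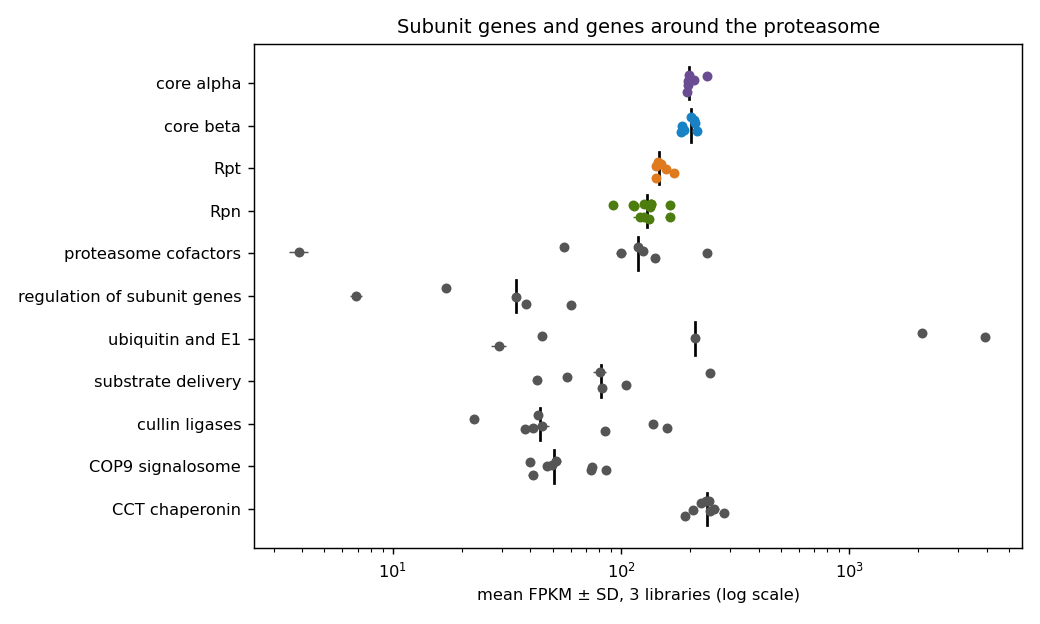
Mean FPKM with SD over 3 libraries (horizontal axis, log scale) of the 31 canonical genes other than Prosalpha1 by class and of genes that act with the proteasome, with 1 point per gene. Black bars are medians: 198, 203, 147 and 129 FPKM for the alpha, beta, Rpt and Rpn genes.

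Genes linked to the control of subunit expression were also all above 1 FPKM by limma, 5 of 5. The transcription factor gene cnc, whose mammalian relatives raise subunit expression, stood at 17.1 ± 0.379 FPKM. Its partner gene maf-S was at 60.5 ± 2.35 FPKM and Keap1, the gene of its inhibitor, at 6.89 ± 0.410 FPKM. The genes rngo and Pngl, whose relatives in Caenorhabditis elegans process such a factor, were at 38.4 ± 0.984 FPKM and 34.7 ± 0.276 FPKM. None of these reached the level of Rpn13, the lowest measured subunit gene.

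Genes of ubiquitin supply had a 134-fold range of means and those of substrate delivery a 5.70-fold range. RpS27A and RpL40, whose products are fusions of ubiquitin and a ribosomal protein, stood at 3904 ± 119 FPKM and 2079.7 ± 89.3 FPKM, and Uba1, the ubiquitin-activating enzyme gene, at 211 ± 6.81 FPKM. The polyubiquitin genes Ubi-p5E and Ubi-p63E were lower, at 44.8 ± 1.67 FPKM and 29.1 ± 2.20 FPKM, but their near-identical repeats can split or lose reads, so that these values are uncertain. All 5 were above 1 FPKM by limma. Of the 6 delivery genes, all above 1 FPKM, Ter94, the segregase that pulls substrates out of complexes, stood at 244 ± 8.67 FPKM. The shuttle receptor genes Rad23 and Ubqn were at 105 ± 1.104 FPKM and 82.2 ± 2.86 FPKM. The Ter94 cofactor genes p47, Ufd1-like and Npl4 were at 80.8 ± 5.23 FPKM, 57.9 ± 2.04 FPKM and 42.9 ± 0.868 FPKM.

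All 8 genes of cullin ligases were above 1 FPKM by limma. SkpA and Roc1a, which serve the Cul1 ligase, stood at 159 ± 2.69 FPKM and 137 ± 5.50 FPKM and Cul1 at 85.1 ± 0.387 FPKM. The lowest were Cul5 at 22.7 ± 0.381 FPKM, Cul3 at 37.7 ± 0.915 FPKM and Cul4 at 41.1 ± 0.958 FPKM. The F-box gene slmb, which directs Ci and Armadillo to the proteasome, was at 43.4 ± 0.267 FPKM.

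Other complexes with fixed subunit numbers gave a scale for the evenness of the subunit genes. The SD of mean log2(FPKM + 0.1) across the 31 canonical genes was 0.34, and across all 32, with Prosalpha1, 1.82. Across the 8 genes of the COP9 signalosome, a relative of the lid, it was 0.42, with means from 39.99 to 85.8 FPKM. The highest of these were CSN7 at 85.8 ± 3.31 FPKM, CSN8 at 74.6 ± 1.63 FPKM and CSN5, its protease gene, at 74.0 ± 0.779 FPKM. The lowest were CSN4 at 47.3 ± 0.912 FPKM, CSN2 (listed as alien, with 30.02% of its exon bases overlapped from the other strand) at 40.9 ± 1.71 FPKM and CSN3 at 40.0 ± 1.26 FPKM. Across the 8 CCT genes the SD was 0.18, with means from 189.7 to 282 FPKM, with CCT5, CCT1 and CCT8 highest at 282 ± 12.8 FPKM, 254 ± 13.3 FPKM and 244 ± 6.93 FPKM. The lowest were CCT7 at 224 ± 6.75 FPKM, CCT6 at 207 ± 4.63 FPKM and CCT3 at 189.7 ± 5.25 FPKM. No test of these differences was made, since genes are not replicates.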

How the data were processed

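The deposited table holds FPKM values made by the authors, 1 column per library, matched to the samples by number because the column prefix w118 is in no label. The submitters' processing notes name build dm6, STAR 2.7.6a and featureCounts 1.6.0, beside CASAVA 1.8, FastQC 0.11.8 and DESeq2. Which annotation was used, and how reads with several matches were handled, is not given in the sources used here. FPKM times merged exon length (Ensembl release 115, BDGP6, dm6 coordinates) was a whole multiple of 1 step, within 0.01 of a read, for over 99.7% of genes above 0 in each library and for all 47 members, which gave recovered reads.

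Levels were tested with limma 3.58.1 (R 4.3.3) on log2(FPKM + 0.1) against 1 FPKM, two-sided, over 13909 genes above 0 in any library, with Benjamini-Hochberg adjustment (threshold 0.05). On this scale, fold differences of genes near the pseudocount are understated. In simulated data with 13377 genes, limma called 96% of 50 genes set at 0.5 FPKM and 96% of 50 set at 2 FPKM on the right side. The simulation gave all genes 1 dispersion, estimated from genes with more reads, so these shares may not carry over to paralogs with few reads. Ratios used the exact sign-flip permutation test. Ratios of pooled reads have exact 95% Clopper-Pearson intervals.

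Members and gene lists were chosen with earlier results of these data known. The rule for values by library named the 5 highest and 5 lowest canonical genes, the catalytic beta genes, all paralogs with reads, copies and the 3 largest SDs. From each pathway list the 3 highest and lowest genes were named with their means. Rpt2, Prosbeta6, slmb and the testis markers with printed values were added after their values were seen. Of 88 list genes 87 matched, and Ecm29 did not. Alternatives changed the pseudocount, the filter, the scaling, the length and the libraries used. No promoter or protein sequence was used here.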

Additional observations from a re-analysis of the deposited data

How the results depend on the processing

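Counts of canonical genes above 1 FPKM were 31 under every alternative tried. The number of detected paralogs went from 1 to 0 with a threshold of 5 FPKM. With genes limited to a mean of at least 0.1 FPKM, which leaves fewer genes to test, 4 members were placed below 1 FPKM, and all 4 were paralogs. The members that left this count, Prosalpha1 among them, were removed by the filter and so not tested. Without 1 library the count of paralogs below 1 FPKM ran from 10 to 13. Of 412 values for single members under alternatives, 404 kept their call and direction, 5 lost the call (Prosalpha4T1 and Prosalpha6T with a pseudocount of 0.01 and without library 3, and Prosbeta2R2 without library 3) and 3 gained it (Rpn12R). The median log2 ratio of canonical gene to paralog was 7.54 and 11.7 with pseudocounts of 1 and 0.01, and 12.3 in recovered reads. Pooled ratios without 1 library, chosen after seeing the data, stand with the paralogs. In recovered reads the log2 ratios of medians reversed to -0.14 for core to regulatory, 0.018 for alpha to beta, -0.23 for alpha to Rpt and -0.25 for beta to Rpt genes, since reads are not divided by length. Per length of the Ensembl canonical transcript, an alternative chosen after seeing the data, core to regulatory was 0.51. The SD of levels among canonical genes was 1.32 and 2.14 with pseudocounts of 1 and 0.01, 2.31 in recovered reads and, chosen after seeing the data, 0.34 without Prosalpha1. The planned promoter motif count was not run, because no sequence was used here. No paired analysis was possible because all libraries form 1 group. Few reads limit the values of the paralogs.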
